A study of Mus musculus with 5 samples.

Results

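Interferon-induced genes were followed in aortas of diabetic db/db mice and of db/+ mice. The set was a list of 39 genes taken by symbol, and 34 of them had at least 1 probe set annotated to that gene alone, of 12393 genes so represented on the array. Those 34 genes had 45 of the 22626 probe sets. A further 3 genes (Isg15, Ifi203 and Tgtp1) were listed only on probe sets that also name other genes, and no probe set was listed for Ddx58 and Ifi44. These 5 genes are therefore given no value.

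The db/db mice were homozygous for the db allele of the leptin receptor gene Lepr, which removes the signalling form of the receptor in every tissue and leads to obesity and diabetes. The db/+ mice were heterozygous for it and came from the same colony. All were males of the strain BKS.Cg-m +/+ Lepr db/J, 16 to 20 weeks old, on regular chow, and the strain name holds a further allele, m, whose carriers the labels do not name. Each Affymetrix array was hybridised with RNA pooled from 6 aortas that had been stripped of adventitia and periaortic fat, and 3 db/db arrays (replicates 1, 2 and 3) and 2 db/+ arrays (replicates 2 and 3) were analysed. A pool averages its animals, so the spread between arrays is one between pools.

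Interferons are cytokines of antiviral and antibacterial defence. Type I interferons signal through the receptor Ifnar1/Ifnar2 and a complex holding Stat2 and Irf9 that binds an element called ISRE in its target promoters, while interferon-gamma signals through Ifngr1/Ifngr2 to an element called GAS. The products of the target genes sense foreign nucleic acid, degrade or trap viral RNA, hold virions at membranes, or, in the case of the guanylate-binding proteins (Gbp) and immunity-related GTPases (Iigp1, Irgm1, Igtp, Ifi47), attack vacuoles that hold intracellular pathogens. These GTPases are classed here as interferon-gamma GTPases, although type I interferons can induce them too. Endothelial cells, smooth muscle cells and resident macrophages of the vessel wall can all respond to interferons.

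Promoters of members of both classes are shown, and that of Iigp1 was not used here. Promoters of RefSeq's GRCm38.p6 annotation, from 250 bases before the start to 50 after it, were found for 30 of the 39 genes. A core of the ISRE, 2 copies of GAAA parted by any 2 bases, was searched on both strands and stood in promoters of 19 of these 30 genes and in 54.1% of their 37 promoters, against 3.44% of all 32851 promoters. The palindrome TTCNNNGAA of the GAS stood in promoters of 10 genes and in 27.0% of the 37 promoters, against 8.3% of all. Among the interferon-gamma GTPases 5 of 6 genes held the ISRE core and 2 held both motifs, and among the type I targets 14 of 22 held the ISRE core and 4 held both. These 6 GTPases include Tgtp1, which is given no value, and leave out Iigp1, so they are not the 6 with values below. Below, 2 GTPase promoters come first, Gbp2 (chr3:142620413-142620712, plus strand) and Igtp (chr11:58199306-58199605, plus strand), then those of 2 type I targets, Bst2 (chr8:71537423-71537722, minus strand) and Ifih1 (chr2:62646206-62646505, minus strand). Capitals mark every match, which in Bst2 is a GAS that overlaps 1 of 2 overlapping ISRE cores. The first ISRE match starts at position -59 in Gbp2, -34 in Igtp, -130 in Bst2 and 33 in Ifih1, counted from the start site, and the GAS of Igtp starts at -45. A match is a stretch of letters and not a measured binding site.
Gbp2: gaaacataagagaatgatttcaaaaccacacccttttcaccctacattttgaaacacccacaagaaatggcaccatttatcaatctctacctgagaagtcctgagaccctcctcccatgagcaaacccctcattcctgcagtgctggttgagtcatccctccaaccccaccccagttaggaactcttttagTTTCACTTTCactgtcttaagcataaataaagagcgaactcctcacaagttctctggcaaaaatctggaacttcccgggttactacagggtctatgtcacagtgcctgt
Igtp: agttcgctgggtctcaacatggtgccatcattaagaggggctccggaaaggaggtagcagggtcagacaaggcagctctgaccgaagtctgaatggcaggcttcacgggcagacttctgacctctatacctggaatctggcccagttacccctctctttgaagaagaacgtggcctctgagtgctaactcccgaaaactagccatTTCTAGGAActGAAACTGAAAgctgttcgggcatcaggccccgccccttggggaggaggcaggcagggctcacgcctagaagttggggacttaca
Bst2: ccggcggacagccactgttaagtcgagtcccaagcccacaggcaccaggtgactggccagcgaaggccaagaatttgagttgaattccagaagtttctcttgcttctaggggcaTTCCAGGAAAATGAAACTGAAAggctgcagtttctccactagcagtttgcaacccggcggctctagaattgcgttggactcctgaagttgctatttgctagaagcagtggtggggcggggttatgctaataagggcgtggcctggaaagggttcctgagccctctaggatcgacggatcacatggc
Ifih1: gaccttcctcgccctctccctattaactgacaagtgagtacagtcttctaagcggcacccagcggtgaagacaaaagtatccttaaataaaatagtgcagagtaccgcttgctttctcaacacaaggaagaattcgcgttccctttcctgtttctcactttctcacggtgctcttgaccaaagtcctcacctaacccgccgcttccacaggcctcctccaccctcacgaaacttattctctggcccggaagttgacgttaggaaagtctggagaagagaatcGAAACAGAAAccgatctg

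The arrays carried MAS5 signals, whose log2 values had a pairwise Pearson correlation of 0.966 to 0.980 over probe sets. With 5 arrays, precision is limited throughout. Lepr itself had signals of 80.4, 91.2 and 71.9 in db/db and 71.5 and 59.2 in db/+ at its brightest probe set (log2 change 0.26, limma adjusted p = 0.77), and which receptor forms that probe set reads was not examined, so it does not check the labels. Its dimmer probe sets lay under the filter on low signals described below. One read 35.5, 23.3 and 23.7 in db/db and 4.6 and 6.1 in db/+, which did not overlap. The other read 22.5, 22.2 and 9.9 in db/db and 19.2 and 6.6 in db/+. Smooth muscle markers were measured on every array, with a summed signal over 12 genes of 29300 to 34903 in db/db and 26469 to 29599 in db/+. Macrophage markers had a summed signal over 19 genes of 4246 to 4513 in db/db and 7018 to 8368 in db/+, and 12 endothelial genes summed to 2086 to 2546 in db/db and 2906 to 3185 in db/+, so neither range overlapped. Of 16 macrophage genes tested 15 had a negative log2 change, and Fcgr1 had one of 0.43. Of the 12 endothelial genes 11 had a negative one, and Kdr and Cdh5 were near 0, at 0.04 and -0.06. In either list 0 genes had a limma adjusted p under 0.05. The 7 B and plasma cell genes summed to 630 in db/db replicate 1 and 277 to 372 in the other db/db arrays, against 305 to 317 in db/+. The 15 T and NK cell genes summed to 1123 in db/db replicate 1 and 696 to 832 in the other db/db arrays, against 661 to 666 in db/+. Only 2 of these 15 passed that filter, and they held most of the summed signal on every array. Zap70 had 440.2, 235.3 and 235.9 in db/db and 170.0 and 155.3 in db/+ (log2 change 0.78, limma adjusted p = 0.46). Thy1 had 168.2 to 287.0 in db/db and 204.2 to 227.5 in db/+, which overlapped. Adipocyte transcripts were abundant although periaortic fat had been removed, with a summed signal over 8 genes of 7646, 13877 and 10980 in db/db replicates 1, 2 and 3, and 11592 and 11167 in db/+ replicates 2 and 3. Of these Fabp4, a fatty acid carrier, had 3130 to 5654 in db/db and 4289 in both db/+ arrays, and Lep, which encodes leptin, was lower at 12 to 35.0 in db/db and 263.9 to 301.6 in db/+ (log2 change -2.96, limma adjusted p = 0.0073). The part of these markers in the values of the interferon-induced genes was not tested. The T cell gene Cd4 was among the dimmest markers, at 6.7 to 11.6 over the 5 arrays, and no measured marker was at 0 on any array. In pooled tissue, fewer cells of a type and less RNA per cell cannot be told apart.

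No interferon-induced gene passed the test between genotypes. Each probe set was fitted with limma on log2(signal + 16), where a fold is understated for low signals, with adjustment by Benjamini-Hochberg across the 13575 that lay above a filter on low signals at about 39.5. Of the 34 genes, 25 passed that filter. By their brightest probe set 0 of the 25 had an adjusted p under 0.05, against 0.109% of the 8263 genes tested, and 0 of their 29 tested probe sets did, against 0.081% of all. The smallest adjusted p of any member was 0.26. At an unadjusted p under 0.05 limma placed 2 members higher (Iigp1 and Gbp2, against 4.36% of all genes) and 2 lower (Bst2 and Ifih1, against 4.25%), which made 4 of 25 against 8.6% of all genes. The signals of db/db and db/+ arrays were fully apart for 2 members higher in db/db (13.7% of all genes) and 3 lower (12% of all genes). Together these were 5 of 25 members, near the 25.6% of all genes whose arrays did not overlap.

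The bounds on change stayed within 2-fold for most members, though for a smaller share of them than of all genes. The 95% interval of the log2 change, from limma and not adjusted for the number of genes, lay within 1 of 0, which is a 2-fold change, for 21 of the 25. It reached past 1 upward for Iigp1, Rsad2 and Oasl1 and past -1 for Bst2. For all genes tested the interval lay within 1 in 93.5%. The log2 change was above 0 for 16 members and below 0 for 9, or 64% above 0 against 53.9% of all genes, and the median was 0.15 against 0.02 for all genes. The members' median was -0.01 without db/db replicate 3 and 0.03 without db/+ replicate 2. Members varied somewhat more between pools of a genotype, with a median SD of 0.22 on the log2 scale against 0.18 for all genes, and their median signal was lower, 90.3 against 152.

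**Figure D1:**
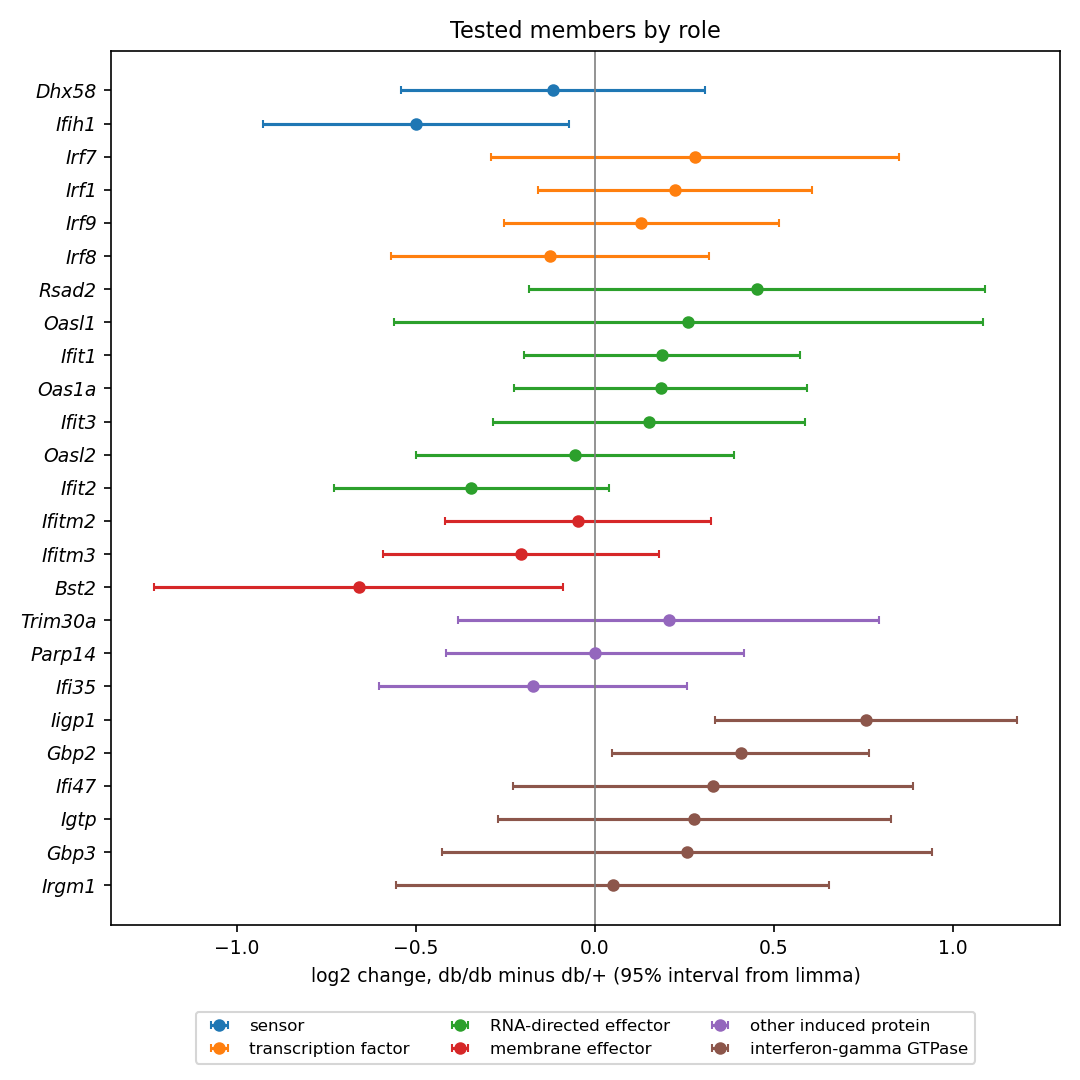
Log2 change, db/db minus db/+, of the 25 tested members by role, 1 brightest probe set a gene, with the 95% interval from limma as bars (3 db/db and 2 db/+ arrays). All 6 interferon-gamma GTPases lie above 0, both sensors and all 3 membrane effectors lie below 0, and no member passed the adjusted test.

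Among the interferon-gamma GTPases was the member with the most positive log2 change, Iigp1, followed over all members by Rsad2 of the RNA-directed effectors and by Gbp2. Iigp1, which coats and disrupts pathogen vacuoles, had signals of 320.6, 343.3 and 400.8 in db/db replicates 1, 2 and 3, and 174.5 and 234.6 in db/+ replicates 2 and 3. Every db/db array lay above both db/+ arrays. The means were 355 ± 41.3 in db/db and 205 ± 42.5 in db/+ (SD, n = 3 and n = 2), and the log2 change was 0.76 (SE 0.19, 95% interval 0.34 to 1.18, limma adjusted p = 0.26), or 1.69-fold. A second probe set of Iigp1 read 54.3, 86.6 and 96.8 in db/db and 42.2 and 55.7 in db/+. Its log2 change was 0.53 (SE 0.23, limma adjusted p = 0.60), and there db/db replicate 1 fell within the db/+ range.

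Gbp2, a guanylate-binding protein that assembles on such vacuoles, had signals of 288.9, 270.7 and 296.9 in db/db and 195.1 and 228.2 in db/+. The arrays did not overlap, and the log2 change was 0.41 (SE 0.16, 95% interval 0.05 to 0.77, limma adjusted p = 0.55). Its second probe set, whose probes may also match relatives of Gbp2, had 225.4, 212.6 and 301.1 in db/db and 149.6 and 126.9 in db/+. The log2 change there was 0.76 (SE 0.19, limma adjusted p = 0.28). Both probe sets of Gbp2 were thus higher on each db/db array than on either db/+ array, by different amounts.

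The other 4 GTPases with a value overlapped between genotypes. Ifi47 had 56.4, 43.3 and 85.1 in db/db and 35.8 and 54.0 in db/+ (log2 change 0.33, SE 0.25, limma adjusted p = 0.81). Igtp, which keeps other GTPases of its family off the cell's own membranes, had 100.6, 128.3 and 174.1 in db/db and 86.1 and 128.6 in db/+ (log2 change 0.28, SE 0.24, limma adjusted p = 0.84). Gbp3 had 47.6, 81.7 and 127.2 in db/db and 70.4 and 58.9 in db/+ (log2 change 0.26, limma adjusted p = 0.89), and Irgm1, another regulator of the family, 114.1, 82.3 and 167.0 in db/db and 133.6 and 94.0 in db/+ (log2 change 0.05, limma adjusted p = 0.98). In each of these 4 genes db/db replicate 3 was the highest of the 5 arrays, and at least 1 other db/db array lay below a db/+ array.

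Among the sensors, Ifih1 and Dhx58 were tested and both had negative log2 changes. Ifih1 encodes MDA5, a helicase that detects long double-stranded RNA, and its signals were 58.7, 42.4 and 64.2 in db/db and 91.1 and 76.6 in db/+. The arrays did not overlap. The means were 55.1 ± 11.3 in db/db and 83.8 ± 10.3 in db/+ (SD, n = 3 and n = 2), and the log2 change was -0.50 (SE 0.19, 95% interval -0.93 to -0.07, limma adjusted p = 0.54). Dhx58, which encodes the related helicase LGP2, had 62.3, 55.5 and 53.9 in db/db and 51.0 and 77.9 in db/+ (log2 change -0.12, limma adjusted p = 0.92), with the db/db values inside the db/+ range. Its other probe sets, under the filter, had signals of 0.8 to 3.9.

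The membrane effectors were likewise on the negative side. Bst2, or tetherin, which holds budding virions at the cell surface, had 66.7, 107.4 and 88.5 in db/db and 109.8 and 190.9 in db/+. The gap between db/db replicate 2 and db/+ replicate 2 was small and db/+ replicate 3 stood well above the other 4 arrays. The log2 change was -0.66 (SE 0.25, 95% interval -1.23 to -0.09, limma adjusted p = 0.55), and it was -0.30 without db/+ replicate 3 and -1.02 without db/+ replicate 2. Ifitm3, which blocks fusion of viruses in endosomes, had 1524.9, 1601.2 and 1612.9 in db/db and 1605.9 and 2074.6 in db/+ (log2 change -0.21, SE 0.17, limma adjusted p = 0.83), again with db/+ replicate 3 apart. Ifitm2 had 1489.8 to 1803.3 in db/db and 1591.7 to 1765.1 in db/+ (log2 change -0.05, limma adjusted p = 0.97). The summed macrophage and endothelial markers given above were lower in the same db/db arrays, though not every gene of them was. Their part in the values of Ifih1 and Bst2 was not tested. Bst2 is also a marker of plasmacytoid dendritic cells, whose 6 measured genes, Bst2 included, summed to 476 to 577 in db/db and 541 to 576 in db/+. The brightest of them was Tcf4, at 205.1 to 326.7 in db/db and 240.7 to 327.6 in db/+. Only 3 of the 6 were tested, and they differed in sign. Tlr9 had a log2 change of 0.52 (limma adjusted p = 0.57) and Tcf4 one of -0.09, beside that of Bst2. The sum therefore does not settle whether these cells differed.

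**Figure D2:**
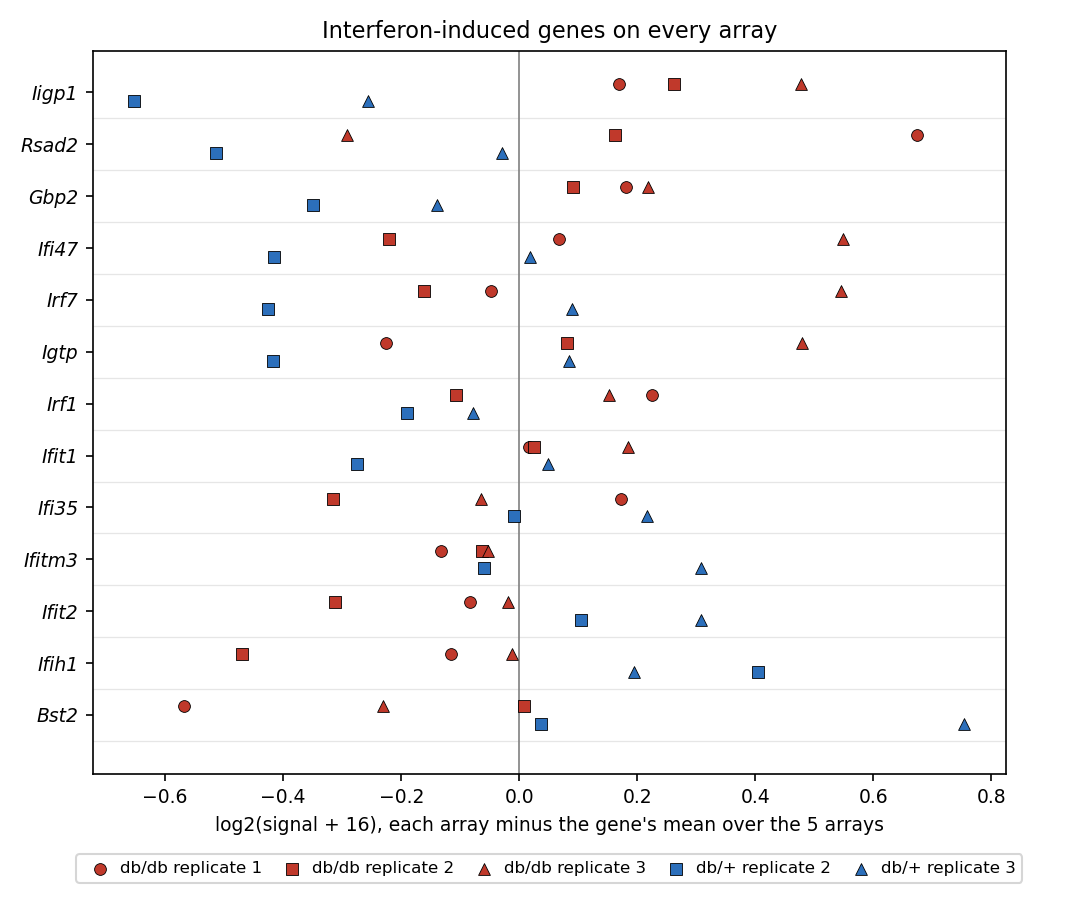
Signals of 13 members on every array, as log2(signal + 16) minus the gene's mean over the 5 arrays, with db/db points above db/+ points in each row and a shape for each replicate. Iigp1 and Gbp2 have all db/db points right of the db/+ points, Ifit2, Ifih1 and Bst2 have them all to the left, and the other 8 rows overlap.

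The RNA-directed effectors went both ways. Ifit2, whose family binds viral RNA, had 59.8, 48.7 and 63.3 in db/db and 70.4 and 83.5 in db/+, which did not overlap (log2 change -0.35, SE 0.17, 95% interval -0.73 to 0.04, limma adjusted p = 0.66). Its neighbours on chromosome 19 differed in sign from it. Ifit1 had 58.6, 59.1 and 67.8 in db/db and 45 and 60.3 in db/+ (log2 change 0.19, limma adjusted p = 0.85), and Ifit3 had 80.2 to 123.6 in db/db and 83.3 to 93.5 in db/+ (log2 change 0.15, limma adjusted p = 0.90).

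Rsad2, or viperin, which makes a nucleotide that ends viral RNA chains, had 160.4, 107.8 and 74.3 in db/db and 61.4 and 92.3 in db/+ at its brightest probe set. Replicate 1 was the highest of the 5 arrays and replicate 3 of db/db lay within the db/+ range (log2 change 0.45, SE 0.28, 95% interval -0.18 to 1.09, limma adjusted p = 0.75). A second tested probe set of Rsad2 had a log2 change of 0.08. The third lay under the filter, with 45.2, 44.0 and 42.4 in db/db and 27.8 and 32.8 in db/+. Of the oligoadenylate synthetase family, only some members of which act through an RNA-degrading enzyme, Oas1a had a log2 change of 0.18 and Oasl2 one of -0.05. Oasl1, with a log2 change of 0.26, was the least settled, at 85.7, 29.4 and 103.6 in db/db and 49.3 and 55.7 in db/+, so that db/db arrays lay on both sides of the db/+ ones.

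The transcription factors did not separate the genotypes. Irf7, which amplifies interferon production, had 81.1, 73.8 and 130.6 in db/db and 58.7 and 90.8 in db/+ (log2 change 0.28, SE 0.25, limma adjusted p = 0.85), with db/db replicate 3 the highest as for the GTPases. Irf1, an early target of interferon-gamma whose promoter holds a GAS at -90, had 283.1, 221.5 and 268.2 in db/db and 208.2 and 226.4 in db/+ (log2 change 0.22, SE 0.17, limma adjusted p = 0.81). Irf9, the DNA-binding part of the type I complex, had a log2 change of 0.13 and Irf8, a factor of myeloid cells, one of -0.13, both with overlapping arrays. Of the remaining induced proteins Ifi35 had 144.4, 98.3 and 120.0 in db/db and 125.3 and 149.3 in db/+ (log2 change -0.17, limma adjusted p = 0.88). Parp14, an ADP-ribosyltransferase, had a log2 change of 0.001. Trim30a had one of 0.21 at its brightest probe set, with 228.5 in db/db replicate 1 against at most 155.9 elsewhere, and one of -0.23 at its second, so its probe sets differed in sign.

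A further 9 members lay under the filter at every probe set and are not in the counts above. They were the sensors Ifi204 and Zbp1, the factor Stat2, the ISG15 protease Usp18, the antiviral GTPases Mx1 and Mx2, the kinase Eif2ak2 (PKR), the synthetase Oas2, and Ifitm1. Over the 16 member probe sets under the filter, signals ran from 0.6 to 51.8. When all 22626 probe sets were tested without a filter, the smallest adjusted p of these 9 genes was 0.65. Mx2 was uneven between pools, at 14.8, 46.6 and 10.1 in db/db and 51.8 and 12.5 in db/+, with replicate 2 high in both genotypes. Eif2ak2 had 39.6, 41.3 and 39.3 in db/db and 20.9 and 30.4 in db/+ at the dimmer of its probe sets, which did not overlap, and 28.3, 48.9 and 44.6 in db/db and 31.4 and 30.4 in db/+ at the brighter one, which did. The 3 shared probe sets that passed the filter had log2 changes from 0.02 to 0.27 and adjusted p of at least 0.89.

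The type I targets were then set beside the interferon-gamma GTPases, with Irf1 and Irf8 in neither class. Of the 17 type I targets tested, 9 had a positive and 8 a negative log2 change, with a median of 0.001 that ranged from -0.04 to 0.13 as single arrays were left out, while all 6 GTPases had a positive one, with a median of 0.30. By the adjusted limma test 0 of the 17 and 0 of the 6 passed. The GTPases varied more between pools of a genotype, with a median SD of 0.36 on the log2 scale. That SD was 0.21 for the type I targets and 0.18 for all genes. The difference of the median log2 changes, type I targets minus GTPases, was -0.30, and it is given as a description with no test, since the members were chosen with earlier results known. It was -0.14 without db/db replicate 3. Dropping replicate 1 of db/db gave -0.46. A block on the replicate number repeats this -0.46, since db/+ has no array numbered 1, and is no separate check.

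On each array the level of a class was taken as the median, over its genes, of the log2 signal minus the gene's mean over the 5 arrays. The GTPases were at 0.03, 0.09 and 0.48 in db/db replicates 1, 2 and 3, and at -0.38 and -0.20 in db/+ replicates 2 and 3. The type I targets were at 0.02, -0.14 and -0.01 in db/db and at -0.13 and 0.09 in db/+, which overlapped. All named genes together lay between -0.02 and 0.03 on every array. The SD between arrays of a genotype was 0.21 for the GTPase median, 0.11 for the type I median and 0.20 for their difference. Each of the 6 GTPases had its highest signal in db/db replicate 3, against 4 of the 17 type I targets and 1373 of the 8263 genes tested. Without that array 4 GTPases were positive and 2 negative and their median was 0.11, against 0.30 with it. Without db/+ replicate 3, by contrast, the GTPase median was 0.52, with 5 positive and 1 negative. In db/db replicate 3 the summed macrophage markers, 4513, were the highest of the db/db arrays and below both db/+ arrays, and the B and plasma cell markers, 277, were the lowest of all 5 arrays. Their part in the GTPase values was not tested.

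**Figure D3:**
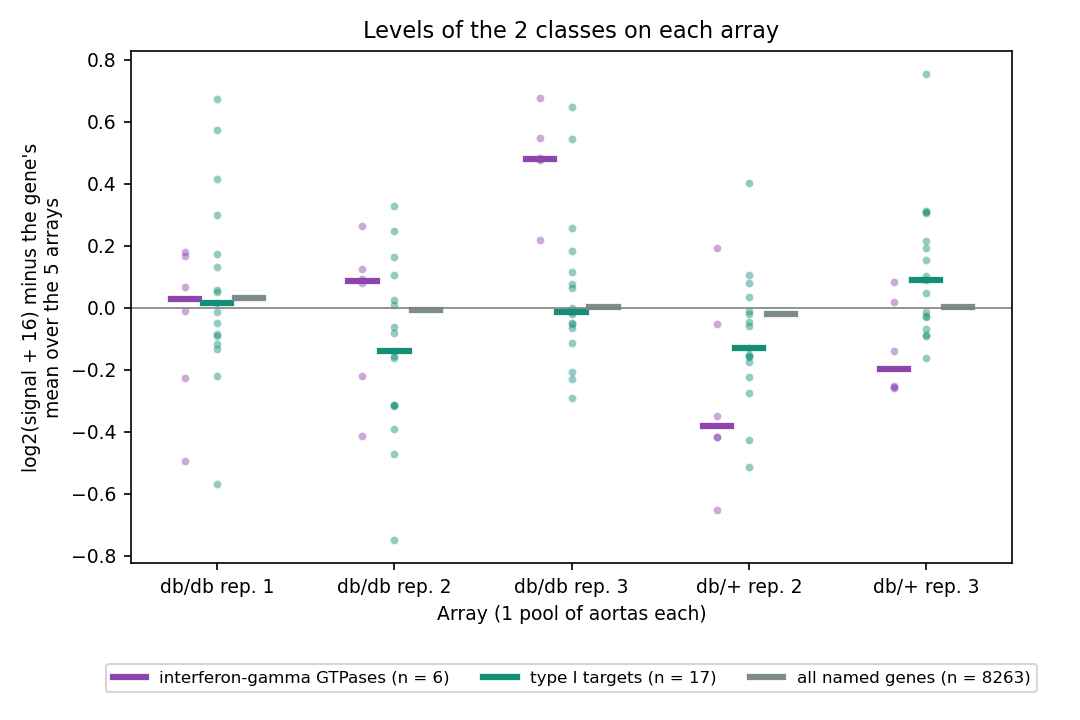
Level of the interferon-gamma GTPases, the type I targets and all named genes on each array, as log2(signal + 16) minus the gene's mean over the 5 arrays, where points are genes and bars are medians. The GTPase median is 0.48 in db/db replicate 3 and -0.38 in db/+ replicate 2, and the type I medians stay between -0.14 and 0.09.

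Genes of the same pathway outside the list gave no call either. Of 77 symbols 58 had a probe set of their own and 39 were tested, of which 20 had a positive and 19 a negative log2 change, with a median of 0.00. By the adjusted limma test 0 passed, and 3 had an unadjusted p under 0.05, all higher, against 8.6% of all genes in either direction and 4.36% higher. Arrays did not overlap for 3 of the 39 on the higher side, against 13.7% of all genes, and for 1, Jak1, on the lower side, against 12%. The 6 interferon genes with a probe set, 5 of type I and Ifng, all lay under the filter, with the highest signal 36.9. Among receptor genes, Ifngr2, the second chain of the interferon-gamma receptor, had 239.1, 297.9 and 279.2 in db/db and 200 and 180.8 in db/+, which did not overlap (log2 change 0.48, SE 0.17, 95% interval 0.10 to 0.85, limma adjusted p = 0.47). A second probe set of Ifngr2 did not overlap either, with 141.1, 130.9 and 140.9 in db/db and 122.6 and 128.4 in db/+, but its log2 change was 0.12. Ifnar1, a chain of the type I receptor, had 152.6, 150.8 and 147.8 in db/db and 127.5 and 135.2 in db/+ (log2 change 0.18, limma adjusted p = 0.84).

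Downstream of the receptors, the kinase gene Jak1 had 372.5, 366.4 and 411.5 in db/db and 450.3 and 415.7 in db/+ (log2 change -0.17, limma adjusted p = 0.85). Other tested probe sets of Jak1 had log2 changes of 0.15 and -0.04, so they differed in sign. Jak2 had a log2 change of -0.06 (limma adjusted p = 0.96). The feedback inhibitor Socs3 had 67.3, 72.9 and 86.0 in db/db and 147.3 and 73.9 in db/+, so that 1 db/+ array set its log2 change of -0.41 (limma adjusted p = 0.75). Its other probe sets had log2 changes of -0.55 and 0.00. The phosphatase gene Ptpn6 had one of -0.27, with 173.8 in db/+ replicate 3 and at most 99.9 on the other arrays. The adaptors Sting1 and Mavs had log2 changes of 0.61 (SE 0.26, limma adjusted p = 0.61) and -0.24, the second of which was 0.17 at another probe set of Mavs. Sting1 had 48.3, 70.4 and 61.8 in db/db and 51.6 and 20.2 in db/+, which overlapped. Isg20, an RNA-degrading exonuclease, had 100, 58.8 and 62.2 in db/db and 48.9 and 22.7 in db/+, which did not overlap (log2 change 0.81, SE 0.27, 95% interval 0.20 to 1.42, limma adjusted p = 0.45). The antigen peptide transporter gene Tap1 had 78.0, 84.6 and 81.2 in db/db and 51.6 and 83.3 in db/+ (log2 change 0.25, limma adjusted p = 0.82).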

How the data were processed

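The authors deposited linear signal intensities per probe set. The submitters' processing notes name MAS5, without a version. The sources used here give no genome build for the deposited signals, while the promoters are on GRCm38.p6. The trimmed means of the arrays were all close to 149, and the values were used as deposited. Of 22690 probe sets, 64 controls were left out. The platform annotation gave 1 symbol for 20380 probe sets, several for 691 and none for 1555, and genes were named only from the first kind. Values were log2 transformed with a pseudocount of 16, and probe sets whose mean log2 value lay above the 40th percentile (a signal of about 39.5) were tested with the functions lmFit and eBayes of limma 3.58.1, run under R 4.3.3 (two-sided, genotype as the only term, 3 residual and 5.63 prior degrees of freedom), with an adjusted p under 0.05 as threshold. Where the text counts genes, each stands by its probe set with the highest mean. The fit was tested on simulated data.

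The members and lists were chosen with earlier results of these data known, so no list was tested. Members named with all arrays were those without overlap at an unadjusted p under 0.05, then those with the smallest p to at least 12 and 1 for each role with a tested gene (no gene of the ISG15 system or the Mx GTPases was tested), and others were added to account for the set. Pathway genes named were the 2 with the smallest p in each role. The alternatives changed the pseudocount (1 or 64), the filter (none, or the 60th percentile), the scaling (quantile or median), the variance model (trend and robust eBayes, or array weights), the block (replicate number) and the gene summary (mean of probe sets), and left out each array. A further db/+ pool in the design text was not analysed here, and nothing in the labels says that same-numbered pools were paired. Promoter sequences are RefSeq's.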

Additional observations from a re-analysis of the deposited data

How the results depend on the processing

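Under all 15 alternatives 0 interferon members and 0 pathway genes passed the adjusted limma test, and the smallest adjusted p of any member was 0.15, with array weights. The log2 changes of the 13 members given on every array kept their sign and stayed short of the threshold in all 190 values, but their sizes moved. A changed filter, or eBayes with trend and robust, leaves a log2 change as it was. The replicate block repeats the log2 changes of the fit without db/db replicate 1. The 190 values are therefore not separate checks. The 13 members were also picked mainly by the smallest p on these arrays, which every alternative reuses, so the kept signs are no independent support. Among all tested GTPases 2 were negative without db/db replicate 3 and 1 without db/+ replicate 3. Without db/+ replicate 2 the log2 change was 0.03 for Igtp, 0.02 for Irf7, 0.11 for Ifi47, 0.03 for Ifit1, 0.21 for Rsad2, -0.29 for Ifi35 and -0.39 for Ifitm3. Without db/+ replicate 3 it was 0.53 for Igtp, 0.54 for Irf7, 0.55 for Ifi47, 0.35 for Ifit1, 0.70 for Rsad2, -0.06 for Ifi35 and -0.02 for Ifitm3. Without db/db replicate 3 it was 0.09 for Igtp, 0.06 for Irf7, 0.12 for Ifi47 and 0.69 for Rsad2. Without db/db replicate 1 it was 0.45 for Igtp, 0.21 for Rsad2 and -0.29 for Ifi35, and without db/db replicate 2 it was 0.51 for Ifi47 and -0.05 for Ifi35. The number of probe sets called over the whole array was less settled. It was 11, against 1 with a pseudocount of 1, 35 with a pseudocount of 64, 1 with no filter, 22 with a filter at the 60th percentile, 19 with median centring, 39 with eBayes with trend and robust and 48 with array weights. Leaving out 1 array gave from 0 to 28 probe sets, with 0 without db/+ replicate 2, 1 without db/+ replicate 3 and 28 without db/db replicate 1. Leave-one-out fits gave a median log2 change of -0.010 to 0.21 for the members, lowest without db/db replicate 3 and 0.03 without db/+ replicate 2, of -0.039 to 0.127 for the type I targets, highest without db/+ replicate 3, and of 0.11 to 0.52 for the interferon-gamma GTPases. The difference of the class medians ranged from -0.46 to -0.14 over all settings and was never positive. Every setting reuses these arrays and the same lists, so the kept sign of that difference is no independent support either. With the filter at the 60th percentile Ifih1, Ifit2, Ifi47, Irf7 and Ifit1 were not tested. The cause of these shifts was not tested. With the replicate number as a block 20 probe sets were called, the GTPase median was 0.42 and no member passed; the arrays with the same number correlated, in their deviations from the group means, with r = 0.107 and -0.005. With only 2 pairs this does not settle whether the pools were paired, and the numbers were used as names. A fit without 1 db/+ array leaves 1 array in that group, which is then assumed to vary like the db/db ones. Detection calls were not used here.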
